A study of Bos taurus with 9 samples.

Results

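In bovine endometrial cells treated with interferon tau (IFNT) on top of estradiol (E2) and progesterone (P4), 44 nuclear genes were lower in all 3 libraries than in each of the 6 libraries without IFNT. They were picked from the expression values, so that a gene belonged to the group when its highest FPKM after IFNT was under 0.6 times the lowest FPKM of the 6 other libraries and the mean of those 6 was at least 5 FPKM. FPKM counts fragments relative to exon length and to the number of mapped reads in the library. The table held 17162 genes, and 9943 of them reached the mean of 5 FPKM. Both limits were passed by 58 genes, or 0.583% of the 9943, and 14 of these were left out by name, 12 encoded by mitochondrial DNA and 2 in the nucleus. The opposite pattern, with the lowest value after IFNT at the matching distance above all other libraries, was found for 280 genes. Because the GB values chose the 44 genes, their differences between GB and the other groups are given as a description, with no p-value. The table holds no read numbers and the sequencing depth stated by the study was not used here. Genes at low FPKM are less precise.

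The 9 libraries were 3 of wild-type (WT) primary cells without hormones or IFNT (CON), 3 of cells given 1 nM E2 and 100 nM P4 (GA), and 3 of cells that had 12 h of the same hormones before 12 h with IFNT at 100 ng/mL (GB). The cells were grown from Holstein uteri in medium with fetal bovine serum, separated by their speed of attachment and used after a few passages. The sources used here do not state how many animals they came from, and the study calls the replicates biological and describes the cultured cells as divided into groups of replicates. Separate animals for the replicates are not stated, so p-values measure the spread between these libraries. The sources also do not state when CON and GA cells were collected, and IFNT and the time in culture cannot be told apart in the comparisons with GB. The labels call the cells epithelial, and the study checked this by staining for a cytokeratin protein, which was found in the cells. The RNA was examined here. All 8 epithelial markers examined, among them the keratins KRT7, KRT8, KRT18 and KRT19 and the cadherin CDH1, had a mean under 1 FPKM, and together they summed to between 0.54 and 2.23 FPKM per library. The 8 stromal markers, among them vimentin (VIM, 9082 ± 460.0 FPKM in CON, 8759 ± 50.3 in GA and 7777 ± 4.26 in GB, mean ± SD, n = 3 here and below) and collagen genes, summed to between 16278 and 16862 FPKM in CON, 16495 and 16819 in GA and 14753 and 14852 in GB. The cells are therefore called endometrial cells here. The stromal markers did not all fall in GB. At an adjusted p under 0.05 (limma), 4 of the 8 were lower and 1 was higher against CON, and 5 and 1 against GA. The higher one was PDGFRA, with 150 ± 7.20 FPKM in CON, 156 ± 6.83 in GA and 196 ± 4.80 in GB. The GB means of DCN and LUM lay above those of CON and below those of GA. Of 5 immune markers in the table, CD163 rose in GB (2.32 ± 0.342 FPKM in CON, 1.89 ± 0.0557 in GA and 9.23 ± 0.172 in GB, adjusted p = 2.88e-06 and 1.13e-06 against CON and GA, limma). CD14, the most abundant of the 5, did not rise, with log2 fold changes of -0.10 and -0.18 (adjusted p = 0.555 and 0.291, limma). For CD68 the log2 fold changes were 0.08 and -0.11 (adjusted p = 0.671 and 0.566, limma). The remaining 2 had a mean under 1 FPKM. The sum of all 5 ran from 24.7 to 28.2 FPKM without IFNT and from 29.9 to 36.0 with it. The 5 endothelial markers summed to between 1.57 and 3.44 FPKM. The part of these shifts in the values below was not tested, and in bulk RNA fewer cells of a type and less RNA per cell cannot be told apart.

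The trophoblast of the ruminant conceptus secretes IFNT, a type I interferon, at the time when the mother recognizes the pregnancy. It binds the type I interferon receptor on uterine cells, and the kinases bound to the receptor start a signal to the nucleus that switches on the interferon-stimulated genes. The known response is mostly one of rising genes, many of which restrain viruses, and the genes that fall are a smaller and more mixed group. The response was present in GB, since all 8 interferon-stimulated genes examined as a check rose in both comparisons, for example MX2 with 0.0633 ± 0.0231 FPKM in CON, 0.107 ± 0.0289 in GA and 757 ± 4.33 in GB (log2FC 10.39 and 10.29, adjusted p = 3.01e-12 and 3.31e-12, limma).

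The FPKM of the 44 genes together was well under its level without IFNT. Their values summed to 2824 ± 30.0 FPKM in CON (SD, n = 3), 2835 ± 41.0 in GA and 1062 ± 9.19 in GB. This was 0.194% to 0.204% of all FPKM of a library in CON and GA and 0.0745% to 0.0757% in GB. A single gene, EIF4EBP2, made up 31.0% of the summed difference of 1768 FPKM between the mean of CON and GA and that of GB, while RENBP made up 6.39%, RAB18 5.69% and SMIM4 5.49%. Without EIF4EBP2 the sums were 1996 ± 40.04, 2031 ± 20.8 and 794 ± 4.55 FPKM in CON, GA and GB. The genes covered the usual range of expression, with a median over CON and GA of 29.1 FPKM (5.05 to 816) beside 32.0 FPKM for all 9943 genes of at least 5 FPKM.

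Each gene kept a part of its RNA. The mean of GB was between 24.8% (FITM2) and 54.9% (CADM1) of the mean of CON and GA, with a median of 44.7%. It was under 40% for 18 genes, from 40% to 50% for 19 and above 50% for 7. The replicates lay close together, with a median coefficient of variation of 5.54% among the GB libraries and 6.62% over the 6 CON and GA libraries, and the limit on the ratio itself favours genes with a small spread. SLC25A15, RTN4IP1 and SMIM4 were the genes with a coefficient of variation above 20% in GB, at 43.9%, 25.7% and 20.7%. At the limit of 0.6, the last genes inside were CADM1, SLC32A1 and PCDH11X with ratios of 0.596, 0.597 and 0.600, and the first outside were ADAM12, TUBB3 and BMI1 with 0.603, 0.607 and 0.609. At the limit of 5 FPKM, NBEA (5.05 FPKM), MAPK4 (5.80) and CXADR (5.95) were just inside, and among the genes outside, LOC104968479 (3.35) and VASH1 (3.33) met the ratio but not the mean.

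**Figure D1:**
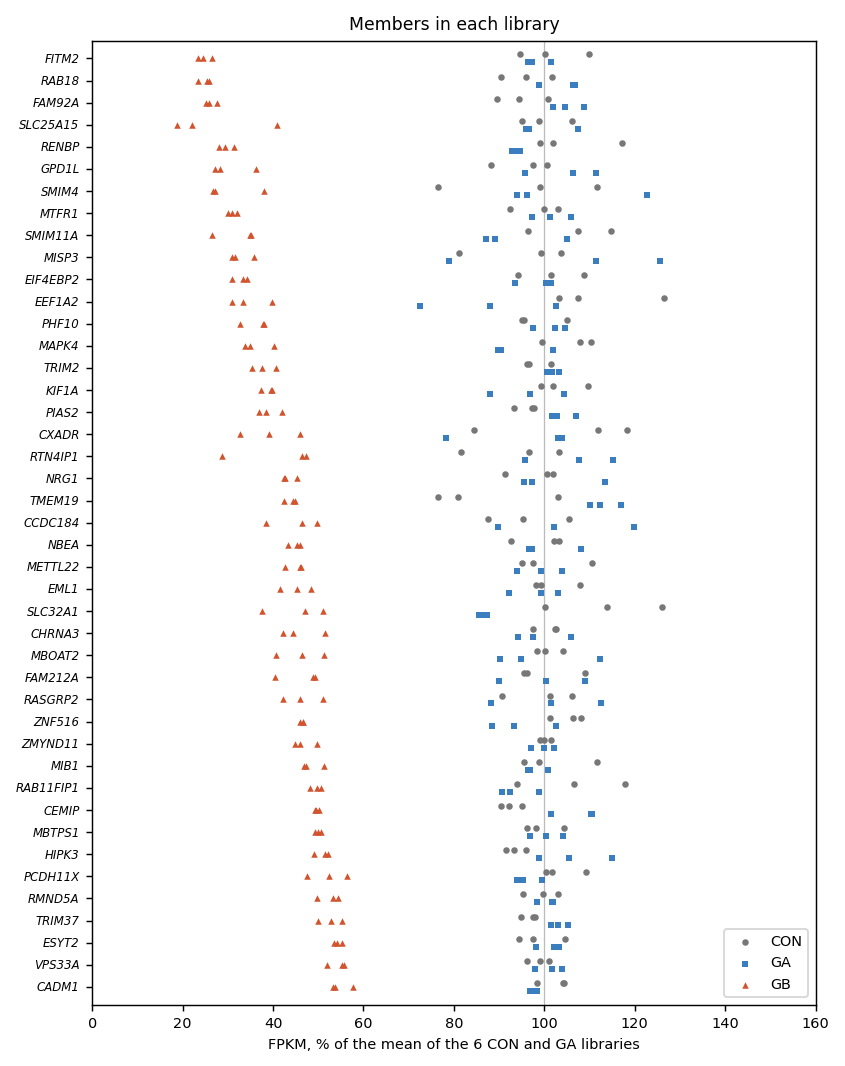
FPKM of 43 of the 44 genes in each of the 9 libraries, as a percentage of the gene's mean over the 6 CON and GA libraries (grey circles CON, blue squares GA, orange triangles GB), ordered by the mean of GB. The GB triangles lie left of all CON and GA points in every row, which the choice of genes fixes, from FITM2 at 24.8% to CADM1 at 54.9%, and the triangles of SLC25A15 spread most.

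In a limma fit over all 12578 genes with a mean of at least 0.5 FPKM, a gene was called when its log2 fold change (log2FC) on log2(FPKM + 0.5) was beyond 1 in size and its adjusted p was under 0.05. Lower calls were made for 33 of the 44 in GB vs. CON, where 1.07% of all genes were, and 34 in GB vs. GA, where 0.978% of all genes were. These calls only describe the size of the differences, and nothing is read from the counts, since the same values chose the genes. The median log2FC of the 44 was -1.13 against CON (-1.99 to -0.85) and -1.11 against GA (-2.05 to -0.81), beside -0.02 and -0.08 for all genes tested. Both comparisons share the GB libraries. In both comparisons 30 genes were called lower, among them every gene from FITM2 to SMIM4 in the order of the ratio. ZNF516, RAB11FIP1 and SLC32A1 were called in GB vs. CON alone, NBEA, CEMIP, HIPK3 and TMEM19 in GB vs. GA alone, and MBTPS1, RMND5A, VPS33A, TRIM37, ESYT2, CADM1 and PCDH11X in neither, where the log2FC was under 1 in size.

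The largest group by role, with 9 genes, deals with lipids and membrane traffic. FITM2, a protein of the endoplasmic reticulum that is needed for lipid droplets to form, had 53.8, 59.1 and 50.9 FPKM in CON, 51.8, 54.6 and 52.3 in GA and 12.5, 13.2 and 14.3 in GB. All GB libraries were close together and far below the others, at 24.8% of the level without IFNT, the lowest share of the 44 genes. The log2FC of GB was -1.99 ± 0.07 vs. CON and -1.95 ± 0.07 vs. GA (± SE from limma, as for each log2FC below). RAB18, a small GTPase of the endoplasmic reticulum and the lipid droplet surface, was more abundant, with 136, 128 and 121 FPKM in CON, 142, 143 and 132 in GA and 34.0, 34.4 and 31.4 in GB. It was at 24.8%, nearly the same share as FITM2, and the log2FC of GB was -1.93 ± 0.06 vs. CON and -2.05 ± 0.06 vs. GA. GPD1L, a relative of glycerol-3-phosphate dehydrogenase, had 22.2, 21.5 and 19.4 FPKM in CON, 23.5, 21.1 and 24.6 in GA and 6.21, 5.99 and 7.96 in GB, with GB replicate 3 somewhat above the other two. NBEA (neurobeachin), a large scaffold of vesicle traffic, stood at the lower limit of expression, with 5.21, 5.15 and 4.67 FPKM in CON, 4.87, 4.91 and 5.46 in GA and 2.19, 2.32 and 2.28 in GB. MBTPS1, the site-1 protease of the Golgi that releases the transcription factors SREBP and ATF6 from membranes, had 54.0, 57.4 and 52.9 FPKM in CON, 53.2, 55.2 and 57.2 in GA and 27.5, 27.9 and 27.1 in GB. Its GB libraries lay within 1 FPKM of each other, at 49.98% of the level without IFNT.

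The other 4 genes of lipids and traffic lay closer to the limit. MBOAT2, which attaches fatty acids to lysophospholipids, was at 46.1%, RAB11FIP1, an effector of RAB11 on recycling endosomes, to 49.5%, ESYT2, a tether between endoplasmic reticulum and plasma membrane, to 54.2% and VPS33A, a subunit of the HOPS complex for fusion with lysosomes, to 54.2%. Relatives and partners of these genes, taken from lists of known families, were looked at in the same fit. Of all genes tested, 1.07% and 0.978% were called lower against CON and GA, and 2.94% and 2.66% were called higher. An unadjusted p under 0.05 by limma was reached by 43.8% and 40% of all genes. These shares stand beside the counts of every list here and below. Since calls are rare, a short list without one says little about its family. Of 15 other tested genes of lipid storage and acyl transfer, 8 had an unadjusted p under 0.05 in each comparison, beside 43.8% and 40% of all genes. GNPAT, which starts ether lipid synthesis, was called lower in GB vs. GA (log2FC -0.89 and -1.07 against CON and GA, in this order here and below, adjusted p = 4.55e-05 and 1.32e-05). PLIN2, a coat protein of lipid droplets, was called higher in GB vs. GA, with 90.4 ± 6.93 FPKM in CON, 85.1 ± 0.835 in GA and 174 ± 4.82 in GB (log2FC 0.95 and 1.03, adjusted p = 2.03e-06 and 1.07e-06). The direction of PLIN2 was thus opposite to that of FITM2 and RAB18. PLIN3, a relative of PLIN2, went in their direction, with log2FC values of -0.41 and -0.33 (adjusted p = 1.18e-04 and 5.25e-04, limma), short of the fold limit. GPD1, a relative of GPD1L, had -0.45 and -0.80 (adjusted p = 0.059 and 0.00545) and was not called. MBOAT1, a relative of MBOAT2, had log2FC values of 0.45 and 0.48 (adjusted p = 8.12e-04 and 6.60e-04), below the fold limit. Of 14 other RAB genes and RAB18 regulators none was called by limma, with 5 and 3 at an unadjusted p under 0.05. RAB3GAP1 and RAB3GAP2 form the exchange factor of RAB18. RAB3GAP1 had log2FC values of 0.24 and 0.11 (adjusted p = 0.0359 and 0.304), and RAB3GAP2 had 0.05 and 0.05 (adjusted p = 0.513 and 0.482). TBC1D20, listed with them, went the other way, with -0.22 and -0.18 (adjusted p = 0.0329 and 0.08). None of 8 other HOPS and CORVET subunits was called by limma (1 and 3 at an unadjusted p under 0.05), nor any of 5 RAB11 genes and effectors (0 and 1) or of 12 other genes around the site-1 protease (4 and 2). VPS33A, MBTPS1 and ESYT2 were themselves called in neither comparison, and RAB11FIP1 in GB vs. CON alone. ESYT1, a relative of ESYT2, had log2FC values of -0.33 and -0.33 (adjusted p = 1.41e-04 and 1.74e-04).

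Of the 3 genes of RNA binding and translation, EIF4EBP2 was the most abundant of the 44. It encodes a protein that binds the cap-binding factor eIF4E and holds back the start of translation, and had 829, 769 and 888 FPKM in CON, 819, 763 and 829 in GA and 253, 271 and 279 in GB. The GB libraries were at 32.8% of the others, and the log2FC of GB was -1.63 ± 0.06 vs. CON and -1.58 ± 0.06 vs. GA. EIF4E itself rose in the same libraries, with 191, 172 and 204 FPKM in CON, 215, 216 and 205 in GA and 1248, 1248 and 1305 in GB. GB overlapped neither CON nor GA, and the log2FC of EIF4E was 2.75 against CON and 2.58 against GA (adjusted p = 1.05e-09 and 1.58e-09). As FPKM levels, which are per length, EIF4EBP2 stood above EIF4E in every CON and GA library and EIF4E above EIF4EBP2 in every GB library. EIF4EBP1, the paralog of EIF4EBP2, had 612 ± 42.2 FPKM in CON, 655 ± 37.8 in GA and 547 ± 5.85 in GB, with log2FC values of -0.16 and -0.26 (adjusted p = 0.0609 and 0.00918). EIF4E was the only one of 12 other cap-binding and scaffold genes tested that was called. Of the 12, 4 and 6 had an unadjusted p under 0.05, beside 43.8% and 40% of all genes.

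Of 12 tested mRNA-binding genes outside the 44, 6 and 7 had an unadjusted p under 0.05, beside 43.8% and 40% of all genes. MSI1 was called lower in GB vs. CON and SRSF12 in both comparisons, each at low FPKM. PABPC1, a poly-A binding protein, had log2FC values of -0.24 and -0.29 (adjusted p = 4.50e-04 and 1.96e-04), under the fold limit, and YBX1 had -0.04 and -0.05 (adjusted p = 0.362 and 0.252). EEF1A2, the form of elongation factor 1A known from muscle and neurons, had 14.4 ± 1.59 FPKM in CON, 11.3 ± 1.93 in GA and 4.45 ± 0.587 in GB. EEF1A1, the form of most other cells, had 10891, 11508 and 11162 FPKM in CON, 11686, 11461 and 11348 in GA and 10943, 11159.9 and 11136 in GB. Its groups overlapped, with log2FC values of -0.01 and -0.05 (adjusted p = 0.81 and 0.316). None of 6 other elongation genes was called by limma, with 2 and 2 at an unadjusted p under 0.05. EEF1A1 and EEF1A2 are similar in sequence, and reads of the far more abundant EEF1A1 could be split between them in the counting, so EEF1A2 is uncertain.

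**Figure D2:**
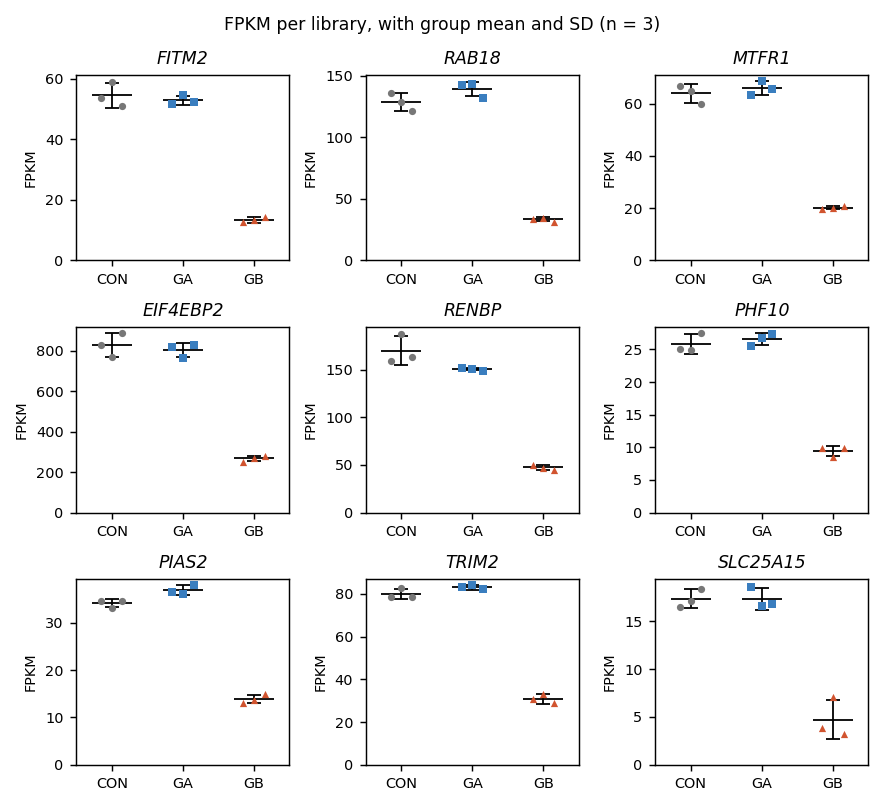
FPKM of 9 of the genes in each library, with the group mean (long bar) and SD (n = 3), on axes that start at 0 (grey circles CON, blue squares GA, orange triangles GB). CON and GA lie close together in each panel and all GB values lie below them, from EIF4EBP2, at 253 to 279 FPKM in GB, to SLC25A15, whose second GB library stands above the other two.

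Mitochondrial proteins encoded in the nucleus made up 4 of the genes and had low shares, with a median of 30.8% of the level without IFNT. MTFR1, which promotes mitochondrial fission, had 66.9, 64.9 and 60.0 FPKM in CON, 63.2, 68.7 and 65.8 in GA and 19.5, 20.1 and 20.8 in GB. The 3 GB values lay close together, and the log2FC of GB was -1.64 ± 0.06 vs. CON and -1.69 ± 0.06 vs. GA. SLC25A15, which carries ornithine into mitochondria for the urea cycle, had 16.5, 17.1 and 18.4 FPKM in CON, 18.6, 16.6 and 16.8 in GA and 3.84, 7.09 and 3.24 in GB. The second GB library was well above the other two, and its 7.09 FPKM was 0.430 times the lowest CON or GA value. SMIM4, a small protein of respiratory complex III assembly, was abundant and variable, with 156, 139 and 107 FPKM in CON, 132, 134 and 172 in GA and 53.0, 38.0 and 37.4 in GB. Its 6 CON and GA libraries ran from 107 to 172 FPKM, and the GB libraries from 37.4 to 53.0. RTN4IP1, a mitochondrial oxidoreductase linked to coenzyme Q synthesis, was at 40.8%, with one GB library (3.99 FPKM) below the others (6.59 and 6.44).

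Relatives and partners of these mitochondrial genes were looked at in the same way. Of all genes tested, 1.07% and 0.978% were called lower and 2.94% and 2.66% higher, so nothing is read from lists without a call. None of 18 other tested genes of mitochondrial shape, complex III assembly and coenzyme Q was called by limma, with 6 and 9 at an unadjusted p under 0.05. MFN2, which fuses mitochondria, had 48.5 ± 2.56 FPKM in CON, 50.8 ± 1.08 in GA and 78.0 ± 3.45 in GB (log2FC 0.68 and 0.61, adjusted p = 1.60e-05 and 3.65e-05), below the fold limit and in the other direction. MTFR1L, a relative of MTFR1, had log2FC values of -0.13 and -0.31 (adjusted p = 0.249 and 0.02, limma). MTFR2, another relative, had 0.30 and 0.18 (adjusted p = 0.00896 and 0.0699). None of 17 other mitochondrial carriers was called by limma, with 9 and 10 at an unadjusted p under 0.05, beside 43.8% and 40% of all genes tested.

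Chromatin, transcription and SUMO accounted for 6 genes. PHF10, a subunit of the PBAF chromatin remodelling complex, had 25.1, 24.9 and 27.5 FPKM in CON, 25.6, 26.8 and 27.4 in GA and 9.95, 8.56 and 9.89 in GB. Its GB libraries lay at 36.1% of the others, and the log2FC of GB was -1.40 ± 0.07 vs. CON and -1.45 ± 0.07 vs. GA. None of 18 other tested BAF and PBAF subunits was called by limma, with 4 and 5 at an unadjusted p under 0.05. ARID2 and BRD7, which also belong to PBAF, had log2FC values of 0.04 and 0.03 and of 0.14 and 0.05. PIAS2, a SUMO ligase of the family named for inhibiting activated STAT proteins, had 34.7, 33.1 and 34.5 FPKM in CON, 36.5, 36.1 and 38.0 in GA and 13.1, 13.7 and 14.9 in GB. Its GB values were at 39.1%, and the log2FC of GB was -1.27 ± 0.06 vs. CON and -1.38 ± 0.06 vs. GA. The relative PIAS1 had 18.1, 18.4 and 17.4 FPKM in CON, 19.8, 20.3 and 20.3 in GA and 26.0, 31.4 and 30.7 in GB, so that its GB libraries lay above all others. Its log2FC values were 0.69 and 0.53 (adjusted p = 1.26e-04 and 7.86e-04), short of the fold limit. PIAS3 had log2FC values of 0.10 and 0.05 (adjusted p = 0.189 and 0.518, limma). PIAS4 had -0.13 and -0.27 (adjusted p = 0.0901 and 0.00502), in the direction of PIAS2 and short of the fold limit. None of the 15 other tested SUMO genes was called by limma in either comparison, with 8 and 2 at an unadjusted p under 0.05.

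ZMYND11, which reads a methylated form of histone H3.3 and restrains transcription elongation, was one of the steadiest genes, with 65.5, 64.0 and 64.5 FPKM in CON, 62.7, 64.5 and 65.9 in GA and 28.9, 32.1 and 29.6 in GB. CON and GA spanned 62.7 to 65.9 FPKM, and GB was at 46.8% of their mean. METTL22, a protein lysine methyltransferase, had 23.9, 27.8 and 24.5 FPKM in CON, 23.6, 24.9 and 26.1 in GA and 11.5, 11.6 and 10.7 in GB. ZNF516, a zinc finger transcription factor, had 12.6, 12.0 and 12.8 FPKM in CON, 11.1, 10.5 and 12.2 in GA and 5.47, 5.54 and 5.53 in GB. The GB libraries of ZNF516 were the closest to each other of the 44 genes, with a coefficient of variation of 0.687%. HIPK3, a kinase that binds homeodomain proteins, was at 50.9%, while HIPK2 had log2FC values of 0.61 and 0.67 (adjusted p = 0.0181 and 0.0132) in the other direction, short of the fold limit. HIPK1 had -0.25 and -0.21 (adjusted p = 0.0251 and 0.0588), in the direction of HIPK3, and HIPK4 had -0.35 and -0.03 (adjusted p = 0.125 and 0.895).

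Ubiquitin ligases numbered 4. TRIM2, a RING finger ligase known from neurons, had 78.3, 82.8 and 78.7 FPKM in CON, 83.0, 84.2 and 82.1 in GA and 30.6, 33.1 and 28.8 in GB. Its GB libraries were at 37.9%, and the log2FC of GB was -1.36 ± 0.06 vs. CON and -1.42 ± 0.06 vs. GA. Its relative TRIM3 had log2FC values of -0.33 and -0.26 (adjusted p = 0.00635 and 0.0214, limma), in the direction of TRIM2 and short of the fold limit. TRIM32 had 0.15 and 0.01 (adjusted p = 0.454 and 0.973). MIB1, which marks Notch ligands for uptake, had 59.1, 66.8 and 57.1 FPKM in CON, 57.8, 57.5 and 60.2 in GA and 30.6, 28.0 and 28.3 in GB. The log2FC values of MIB2 were -0.25 and -0.22. TRIM37, a ligase of centrosomes and peroxisomes, and RMND5A, a subunit of the CTLH ligase, were at 52.7% and 52.4% and were called in neither comparison. None of 10 other CTLH subunits was called by limma either, with 3 and 3 at an unadjusted p under 0.05.

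Signaling was represented by 4 genes of low to moderate FPKM. MAPK4 (ERK4), an atypical MAP kinase, had 6.40, 5.77 and 6.26 FPKM in CON, 5.91, 5.21 and 5.25 in GA and 2.03, 2.33 and 1.96 in GB. Its GB libraries were at 36.3%. Its relative MAPK6 (ERK3) was at log2FC 0.04 and -0.07. NRG1, a growth factor of the EGF family that binds ERBB3 and ERBB4, had 6.97, 7.06 and 6.32 FPKM in CON, 6.62, 7.85 and 6.74 in GA and 3.13, 2.95 and 2.94 in GB. Of these receptors, ERBB3 had group means of 0.163 to 0.267 FPKM and ERBB4 was listed at 0 in all but 1 library. ERBB2, which pairs with them, had 12.0 ± 0.346 FPKM in CON, 13.1 ± 0.478 in GA and 13.5 ± 0.862 in GB (log2FC 0.15 and 0.03, adjusted p = 0.111 and 0.755). EGFR, the receptor of EGF and a relative of these, had log2FC values of 0.59 and 0.67 (adjusted p = 0.00234 and 0.00128). RASGRP2, an exchange factor for the GTPase RAP1, was at 46.4%, and FAM212A, also named INKA1, an inhibitor of the kinase PAK4, to 46.1%.

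Among 4 genes of adhesion and matrix, CXADR, the receptor of coxsackie and adenoviruses at cell junctions, was the lowest in FPKM and was at 39.2%. CADM1, an immunoglobulin-type adhesion molecule, and PCDH11X, a protocadherin, were at 54.9% and 52.1% and were called in neither comparison. CADM4 had log2FC values of -0.84 and -0.98 (adjusted p = 0.00467 and 0.00234), in the same direction and also under the fold limit, and CADM3 had -0.16 and -0.07 (adjusted p = 0.732 and 0.887). CEMIP, which takes part in breaking down hyaluronan, was at 49.6%. None of 7 other tested hyaluronan genes was called by limma, with 3 and 1 at an unadjusted p under 0.05, and HAS2, a hyaluronan synthase, was at log2FC -0.34 and 0.01.

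Genes best known from neurons or the cytoskeleton numbered 4. KIF1A, a kinesin motor that carries synaptic vesicle precursors, had 8.96, 9.89 and 9.19 FPKM in CON, 9.42, 7.93 and 8.73 in GA and 3.56, 3.58 and 3.36 in GB. Its GB libraries lay close together at 38.8% of the level without IFNT. The kinesin KIF5C rose from near 0 in the same libraries, with 0.200, 0.200 and 0.0300 FPKM in CON, 0, 0.180 and 0.130 in GA and 6.07, 7.07 and 5.61 in GB. The log2FC of KIF5C was 3.40 and 3.49 (adjusted p = 2.24e-06 and 1.86e-06), while KIF21B was called lower in GB vs. CON (log2FC -1.06 and -0.82, adjusted p = 7.19e-04 and 0.00358) with 2.21 ± 0.203 FPKM in CON, 1.80 ± 0.263 in GA and 0.800 ± 0.0964 in GB. KIF1B and KIF1C, relatives of KIF1A, had log2FC values of -0.003 and -0.13 and of -0.15 and -0.18. Of the 13 other kinesin genes tested, 11 had an unadjusted p under 0.05 in each comparison, beside 43.8% and 40% of all genes tested. With an adjusted p under 0.05, 7 and 9 of the 13 were below 0, and 2 and 1 were above it. The share of all genes at this limit is not given here, so nothing is read from these counts. Among those below 0, KIF5A had -0.79 and -0.99 (adjusted p = 0.0104 and 0.00385, limma), short of the fold limit. KLC4 had -0.80 and -0.63 (adjusted p = 2.77e-04 and 0.00133), also short of it. KIFAP3 had 0.26 and 0.004 (adjusted p = 0.0073 and 0.973). EML1, a microtubule-binding protein, had 29.7, 32.6 and 30.1 FPKM in CON, 31.2, 30.0 and 27.9 in GA and 14.6, 13.7 and 12.6 in GB. CHRNA3, a subunit of nicotinic acetylcholine receptors, and SLC32A1, the vesicular transporter of GABA and glycine, were at 46.1% and 45.2% of means of 8.53 and 7.28 FPKM.

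RENBP and FAM92A were among the 4 genes with the lowest ratios. RENBP, an epimerase that acts on N-acetylglucosamine and was named for binding renin, had 159, 188 and 163 FPKM in CON, 152, 151 and 149 in GA and 50.1, 47.0 and 45.0 in GB. Its highest GB value was 0.336 times the lowest CON or GA value, and the log2FC of GB was -1.83 ± 0.07 vs. CON and -1.66 ± 0.07 vs. GA. NANS, which makes sialic acid, had log2FC values of -0.56 and -0.56 (adjusted p = 7.70e-06 and 7.69e-06), and none of the 5 other tested sialic acid genes, NANS included, was called by limma, with 4 and 3 at an unadjusted p under 0.05. FAM92A, a BAR domain protein of the cilium base, had 118, 104 and 110.2 FPKM in CON, 127, 122 and 119 in GA and 30.1, 29.2 and 32.1 in GB. Its GB libraries were at 26.1%, and the log2FC of GB was -1.84 ± 0.06 vs. CON and -1.99 ± 0.06 vs. GA. Of 16 other tested cilium genes, 6 and 9 had an unadjusted p under 0.05, beside 43.8% and 40% of all genes. Only FUZ was called, lower in GB vs. CON (log2FC -1.01 and -0.92, adjusted p = 0.00415 and 0.00779, limma). BBS4 had 0.69 and 0.63 (adjusted p = 2.32e-04 and 4.41e-04) in the other direction, short of the fold limit. SMIM11A, MISP3, CCDC184 and TMEM19 are genes of little known function. SMIM11A had 66.7, 74.2 and 79.3 FPKM in CON, 61.6, 72.6 and 60.1 in GA and 24.2, 18.4 and 24.2 in GB, with the second GB library lowest. MISP3 had 29.9, 23.4 and 28.6 FPKM in CON, 36.2, 32.1 and 22.7 in GA and 8.92, 10.3 and 9.10 in GB. The 6 libraries without IFNT spread over 22.7 to 36.2 FPKM. CCDC184 and TMEM19 were at 44.9% and 43.9%.

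**Figure D3:**
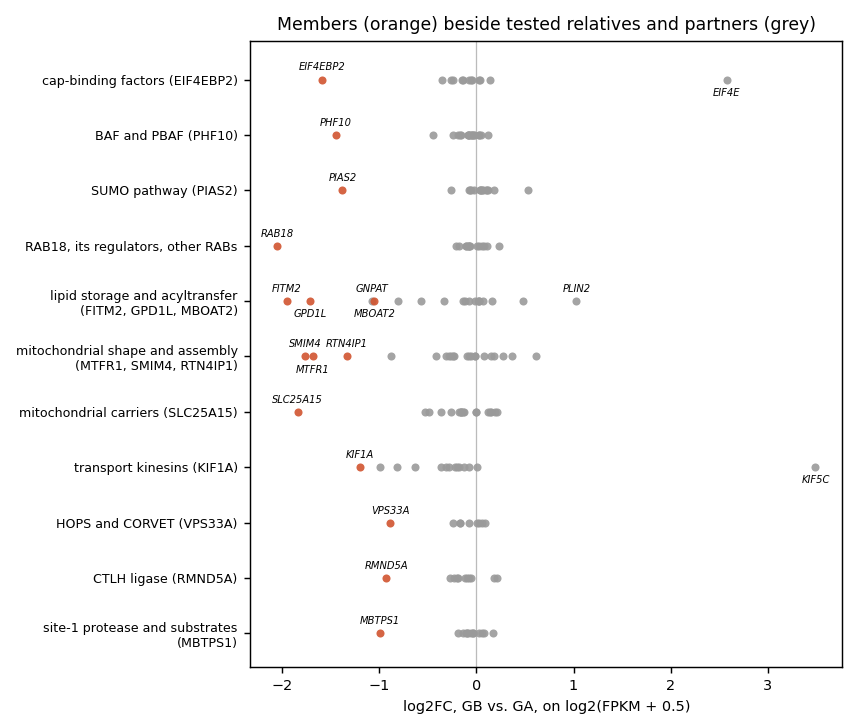
The log2FC of GB vs. GA on log2(FPKM + 0.5) for selected genes of the 44 (orange) and the other tested genes of the same family or complex (grey), 1 row per list. Names mark the 44 genes and any other gene called. The grey points lie mostly between -0.5 and 0.5. Beyond these values are called genes such as EIF4E (2.58), KIF5C (3.49) and PLIN2 (1.03) on the right and GNPAT (-1.07) on the left. Some genes that were not called also lie there, such as KIF5A (-0.99), TCAIM (-0.88), KIF21B (-0.82) and GPD1 (-0.80) on the left and MFN2 (0.61) and PIAS1 (0.53) on the right.

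Over the 28 family lists that hold at least 1 of the 44 genes, 228 other genes were tested. In GB vs. CON 4 of them (1.75%) were called lower and 2 higher, while 2 (0.877%) were lower and 3 higher in GB vs. GA. All genes tested gave 1.07% and 0.978% called lower and 2.94% and 2.66% called higher. The lists were written with earlier results of these data known, so they are no independent sample of families.

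The same genes were also compared between GA and CON, to see their levels under the hormones alone. The choice of genes used the CON and GA values, and a gene with a large difference between them was less likely to be chosen, so the small differences below are partly fixed by the choice and nothing is read from the counts. In GA vs. CON, tested with limma, none of the 44 genes was called, beside 0.0716% of all genes tested, and none had an adjusted p under 0.05 by limma, beside 0.453%. At an unadjusted p under 0.05 there were 7 of 44, beside 19.3% of all genes. The log2FC ran from -0.36 to 0.39 with a median of 0.01, 21 genes below 0 (34% of all genes were) and 23 above, beside a median of 0.06 for all genes. The gene furthest up was TMEM19, with 18.8, 19.9 and 25.3 FPKM in CON, 27.1, 27.6 and 28.8 in GA and 10.4, 11.1 and 10.9 in GB. CON replicate 3 was far above the other two and below all GA libraries, and the log2FC in GA vs. CON was 0.39 ± 0.10 (adjusted p = 0.111). Without that library it was 0.51 (adjusted p = 0.0283), so 1 gene then passed the adjusted p. SLC32A1 with -0.36 ± 0.12 (adjusted p = 0.170) and EEF1A2 with -0.35 ± 0.14 (adjusted p = 0.217) were the lowest. The median SE of these values was 0.07, and a p that misses the limit does not show that the hormones left the genes unchanged.

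**Figure D4:**
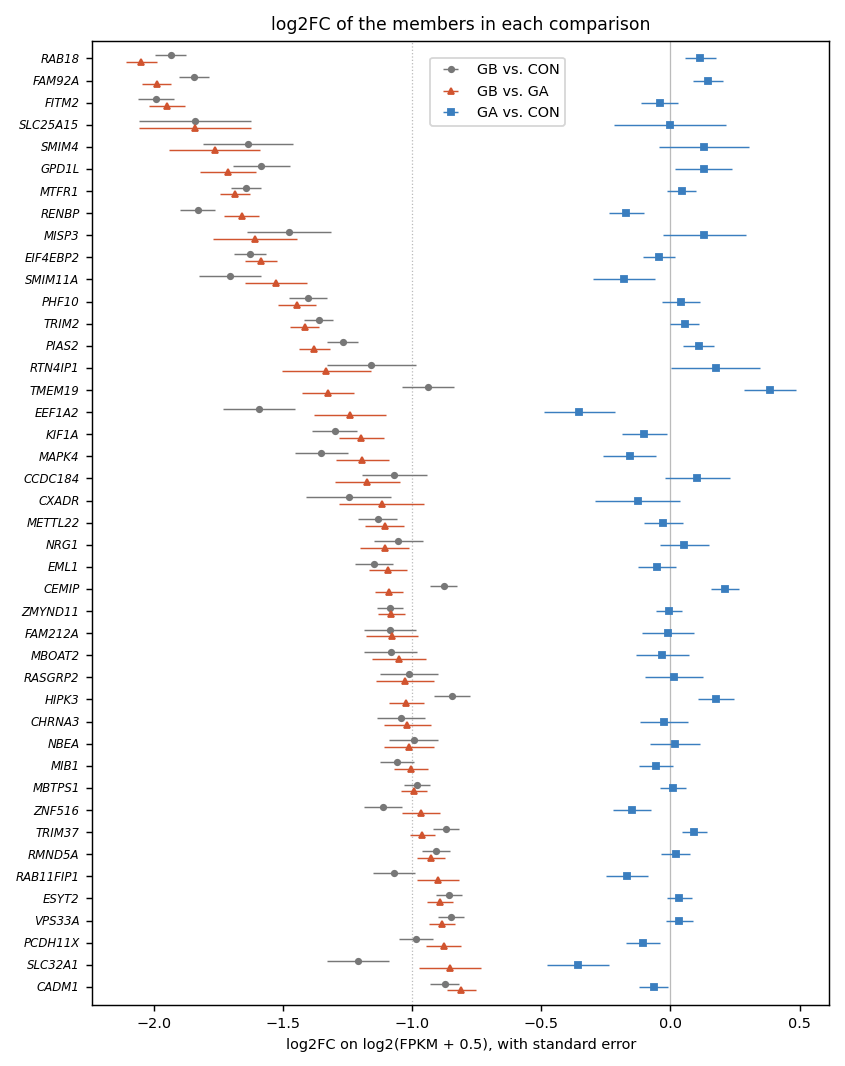
The log2FC of 43 of the 44 genes on log2(FPKM + 0.5), with the standard error from limma, in GB vs. CON (grey circles), GB vs. GA (orange triangles) and GA vs. CON (blue squares), with a dotted line at -1. The GA vs. CON values lie around 0, between -0.36 and 0.39, and the comparisons with GB lie between -0.81 and -2.05, which the choice of genes fixes.

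The position of the genes was looked at through the order of genes in RefSeq (assembly ARS-UCD2.0), which is not the build of the deposited values (ARS-UCD1.2), so no coordinates are given. For 42 of the 44 genes a place was found, and no pair of them were next to each other. Of 59 tested neighbours, 61.0% had a log2FC below 0 against CON and the same share against GA, beside 52.6% and 62.3% of all genes. TRIQK, next to FAM92A, was called lower in GB vs. GA (log2FC -1.17, adjusted p = 0.0327), and it was the only neighbour called lower in either comparison. UBA7, the activating enzyme of ISG15, stands next to FAM212A and rose (log2FC 5.10 and 5.34), and FUT10, next to NRG1, rose as well (1.86 and 1.73). For 6 genes RefSeq places a neighbour that overlaps them, and the sources used here do not state whether the counting used strand, so reads of NBEA, MTFR1, FAM92A, TRIM37, CHRNA3 and PHF10 could in part belong to MAB21L1, PDE7A, RBM12B, PPM1E, CHRNA5 and C9H6orf120. MAB21L1 and CHRNA5 were too low to be tested, and the other 4 were not called by limma, with PPM1E at -0.60 and -0.39 (adjusted p = 6.26e-04 and 0.00791).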

How the data were processed

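RNA of 9 libraries of bovine endometrial cells (3 each of CON, GA and GB) was enriched with poly-T beads and sequenced from directional libraries. According to the submitters' processing notes and the methods, the authors trimmed reads with fastp 0.21.0, removed rRNA reads with Bowtie2, aligned the rest to ARS-UCD1.2 with HISAT2 2.2.1, counted with RSEM 1.3.3 and tested with DESeq2 1.34.0. The annotation release was not given in these sources. What the authors deposited is FPKM for each gene in each library, to 2 decimals. No read counts were used, so log2(FPKM + 0.5) was tested with limma 3.58.1 (variance trend, 1 fit over 9 libraries, genes of mean FPKM of at least 0.5, Benjamini-Hochberg) in R 4.3.3. The procedure was tested on simulated data. Figures used Python 3.11.15 and matplotlib 3.10.9. The genes, families and lists were chosen with earlier results of these data known, and 12 of the lists after the 44 genes had been seen. Values in every library are given for the 25 genes with the lowest ratio, except 1 that is not reported here. Other genes named are relatives, markers and those set beside a gene. RAB3GAP1, RAB3GAP2, TBC1D20, KIFAP3, FUZ, BBS4 and the neighbours were chosen after their values were seen. Promoter and protein sequences were not used here. The alternatives were other pseudocounts, filters, scalings, fits, limits and each library left out.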

Additional observations from a re-analysis of the deposited data

How the results depend on the processing

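The number of genes chosen depended on the limits. A ratio under 0.5 gave 20 genes and a ratio under 0.7 gave 136, while a mean of at least 2 or 10 FPKM gave 54 and 36, rescaling to equal sums 40, median-of-ratios factors 36 and quantile normalization 45. Leaving out 1 library gave 45 to 65, the most without GB replicate 2. CADM1, CXADR, PCDH11X and SLC32A1 were lost under all 3 scalings, and their place among the 44 rests on the scaling. Median-of-ratios factors also lost NBEA, MBOAT2, VPS33A and RASGRP2, whose place depends on that choice of scaling. Over all alternatives of the fit, between 30 and 35 of the 44 were called lower against CON and 28 to 36 against GA, and no gene changed direction, which the choice of genes largely fixes and which is no sign of stability. In GA vs. CON the count with an adjusted p under 0.05 ran from 0 to 1 when 1 library was left out, with TMEM19 passing without CON replicate 3. It was 0 under each other alternative, and the choice of genes also favours low counts here. With the replicate number as a block the counts were 33, 34 and 0, as without it. Samples of the same number had correlations of their deviations of -0.03 to 0.08, beside -0.07 to 0.06 for samples of different numbers, so the numbers were not taken to pair the samples. Read numbers are not in the table, which limits what can be said of genes near 5 FPKM. With 3 libraries a group, no test for outlying values was made.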

Other observations

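Some genes outside the 44 were called lower at FPKM values near or under the limit of 5. AGO4, an Argonaute protein of small RNA silencing, had means of 2.96, 3.31 and 0.917 FPKM in CON, GA and GB (log2FC -1.28 and -1.43 against CON and GA, adjusted p = 5.57e-05 and 3.06e-05, limma). SLC7A11, the cystine transporter that feeds glutathione synthesis, had 2.67, 2.43 and 0.810 FPKM (log2FC -1.26 and -1.16, adjusted p = 6.81e-04 and 0.00127). APH1B, a subunit of gamma-secretase, was more abundant, with 9.94, 12.7 and 4.43 FPKM (log2FC -1.08 and -1.41, adjusted p = 0.00467 and 0.00127).

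Of 16 tested histone genes, 3 were called lower against CON and 5 against GA, beside 1.07% and 0.978% of all genes. HIST1H2BB had means of 87.6, 88.2 and 41.3 FPKM (log2FC -1.08 and -1.10, adjusted p = 1.22e-04 and 1.31e-04). Histone genes are near-identical copies whose RNA mostly lacks a poly-A tail, so these poly-T selected values are uncertain. SAT1, which breaks down polyamines, rose from 122 and 144 to 349 FPKM (log2FC 1.51 and 1.28, adjusted p = 2.19e-08 and 8.41e-08).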
